A study of Homo sapiens with 11 samples.

Results

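Imprinted genes are transcribed mainly from the copy of 1 parent, and 33 of them were followed here through cultured human embryonic stem cells. The members were listed by gene symbol, and all 33 of 33 were found in both deposited expression tables, among 23287 genes in all. They lie on 11 chromosomes, with 7 on chromosome 15, 7 on chromosome 11 and 6 on chromosome 7. From textbook knowledge, 19 are expressed mainly from the paternal copy and 10 from the maternal copy, and for 4 the active copy depends on the isoform or tissue. The tables hold no information on alleles, so only total RNA per gene was measured.

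The study measured RNA by sequencing in 2 established human embryonic stem cell lines, H1 and H7. In 9 libraries the cells had been infected with a lentivirus carrying an shRNA, a short hairpin that lowers its target RNA, and were collected 5 days later. The shRNA was a control, one named uCCNE1, or one named pCCNE1, for a splice form of CCNE1 that is found in primates and is made by the gene of cyclin E1, and each was used in primed H1 cells, in H7 cells held as naive cells in 5iLA medium and in H1 cells held as naive cells in t2iGo medium. The other 2 libraries were untreated H7 cells, 1 primed and 1 held in 5iLA. There was 1 library per group, so the 3 shRNAs of a culture stand in for replicates of that culture, and the 3 cultures for replicates of an shRNA. The p-values below thus reflect the spread among single libraries, and that spread may be technical. Triplets of values are given in the order control, uCCNE1 and pCCNE1 shRNA.

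Imprinting rests on DNA methylation that is laid down in the egg or the sperm at control regions and is kept on that copy after fertilisation. The zinc finger proteins ZFP57 and ZNF445 bind the methylated copy of these regions and recruit TRIM28, while DNMT1 copies the methylation at each cell division. The naive state resembles the cells of the early embryo before implantation, and the primed state those after it. Naive media are known to lower DNA methylation across the genome, and loss of methylation at imprinted regions is a known property of human naive cultures, after which a gene can be read from both copies or from neither.

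The stretches before the start sites of 3 members are shown as examples from clusters in which levels differed between cultures: MEG3 and MKRN3 were near 0 outside 5iLA, and SNURF was high in primed H1 and listed at 0 in t2iGo H1. Not all members with large differences could be shown: stretches of NNAT, PEG3, IGF2 and DLK1 were not used here, and that of H19 was left out because its start in the table is not that of the deposited transcript. Each is the 250 bases upstream of a RefSeq start on build GRCh38.p14, written 5′ to 3′ on the gene's strand, at chr14:100825858-100826107 (plus strand) for MEG3, chr15:23565424-23565673 (plus strand) for MKRN3 and chr15:24954737-24954986 (plus strand) for SNURF. Capitals mark TGCCGC or, on the other strand, GCGGCA, the core that ZFP57 recognises when its CpG is methylated.
MEG3: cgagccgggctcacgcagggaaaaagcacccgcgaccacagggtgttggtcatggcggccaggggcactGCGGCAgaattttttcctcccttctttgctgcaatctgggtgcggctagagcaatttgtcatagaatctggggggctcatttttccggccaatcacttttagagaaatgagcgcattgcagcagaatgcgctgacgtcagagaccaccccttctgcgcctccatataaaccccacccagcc
MKRN3: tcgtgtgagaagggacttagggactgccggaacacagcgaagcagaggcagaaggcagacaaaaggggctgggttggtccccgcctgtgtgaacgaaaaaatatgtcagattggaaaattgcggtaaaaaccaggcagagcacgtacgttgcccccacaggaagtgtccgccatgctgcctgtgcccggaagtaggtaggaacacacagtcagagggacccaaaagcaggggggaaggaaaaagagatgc
SNURF: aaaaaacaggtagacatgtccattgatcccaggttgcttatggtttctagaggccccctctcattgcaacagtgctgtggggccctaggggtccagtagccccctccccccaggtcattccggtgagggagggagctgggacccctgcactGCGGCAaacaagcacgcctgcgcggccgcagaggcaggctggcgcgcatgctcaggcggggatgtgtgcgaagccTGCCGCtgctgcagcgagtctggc

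The MEG3 stretch held 1 such core and 13 CpG dinucleotides, the MKRN3 stretch held 0 cores and 10 CpG, and the SNURF stretch held 2 cores and 12 CpG. Stretches of 250 bases were found for 21 of the 33 members, of which 6 (28.6%) held the core on either strand, against 12.7% of all 35116 RefSeq starts in the table. The 21 include H19, which held 0 cores at this uncertain start, and without it the share was 6 of 20 (30.0%). The 6 were MEG3, SNURF, NDN, ATP10A, GRB10 and NAP1L5. The median number of CpG was 16 in the 21 members and 11 over all starts. Each member entered with a single start, the first listed for it, while every start of every gene was counted in the comparison. The shares and medians are thus not fully alike, and a member's first start need not be its imprinted one. A match describes these letters only and is no evidence of binding.

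Before the members are compared, the cultures need to be set against their labels and against each other. Values are RPKM, reads scaled by transcript length and library size, and differences are on the scale of log2(RPKM + 1), a scale that understates changes at low values. The summed RPKM of a set of 12 naive markers was 668 to 1271 in 5iLA H7 and 240.3 in untreated 5iLA H7, but 5.12 to 7.29 in the libraries labelled t2iGo naive, close to the 4.19 to 5.46 of primed H1. The t2iGo libraries thus went against their label on these markers, with DPPA3 at 0.34 to 0.77 RPKM and DPPA5 at 0 to 0.14 RPKM. Their summed endoderm markers were 66.7 to 151, against 2.05 to 6.94 in primed H1. They are called t2iGo H1 below, after the medium, and not naive cells. The summed RPKM of 12 primed markers was 2205 to 2448 in primed H1, 812 to 928 in t2iGo H1 and 55.9 to 73.0 in 5iLA H7. In the separate table it was 1048 in untreated primed H7 and 516 in untreated 5iLA H7. The untreated 5iLA library was thus far above the 5iLA shRNA libraries on these markers. The primed H1 libraries stood apart in scale, with a summed RPKM of 341088 to 357685 against 139202 to 224314 in the other 6 shRNA libraries. As deposited, the median over 12116 tested genes was -0.82 for t2iGo H1 minus primed H1, -1.23 for 5iLA H7 minus primed H1 and -0.31 for 5iLA H7 minus t2iGo H1. After scaling each library by the median ratio of its genes these medians were -0.01, -0.04 and 0.04, and differences after this scaling are given beside those from the values as deposited. By estimate, depth was 6.30 to 14.0 M reads in t2iGo H1, 11.3 to 16.5 M in 5iLA H7 and 18.8 to 23.3 M in primed H1, with 13.3 M in the untreated primed and 24.8 M in the untreated 5iLA H7 library.

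**Figure D1:**
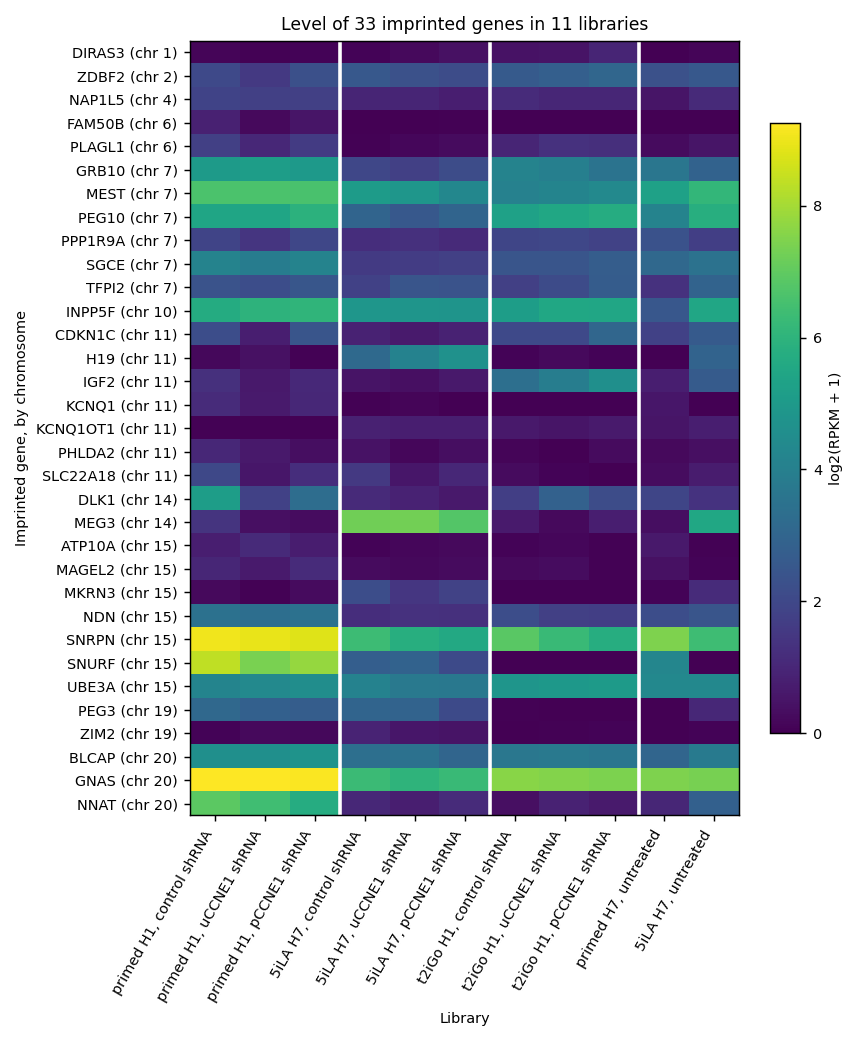
Level of the 33 imprinted genes (rows, by chromosome) in the 11 libraries (columns, white lines between cultures), as log2(RPKM + 1) in colour. MEG3 and H19 are brightest in the 5iLA columns, NNAT and SNURF in the primed H1 columns, and IGF2 in t2iGo H1; SNURF is also visible in untreated primed H7, at 18.1 RPKM, and NNAT in untreated 5iLA H7, at 6.08 RPKM.

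Across the 9 shRNA libraries the members spanned a wide range of levels. GNAS, the gene of the stimulatory G protein alpha subunit, and SNRPN, a spliceosomal protein gene, had the highest mean levels at 285 and 211 RPKM. A mean of at least 1 RPKM was reached by 23 members, and these entered the tests. For 6 of the 23 the mean over the other 2 cultures was under 1 RPKM, so that 1 culture carried them past this minimum: 5iLA H7 for H19 and MEG3, t2iGo H1 for IGF2, primed H1 for NNAT and NAP1L5, and either H1 culture for PLAGL1. Their differences from the other cultures were in part a condition of being tested, and their p-values below are to be read with that limit. The 10 members not tested were KCNQ1OT1, PHLDA2, MAGEL2, MKRN3, ATP10A, DIRAS3, SLC22A18, FAM50B, ZIM2 and KCNQ1. Of these, DIRAS3, KCNQ1OT1, FAM50B and ZIM2 stayed under 1 RPKM in all 11 libraries.

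The members on chromosome 14 belong to 1 imprinted cluster, in which the paternal copy makes DLK1, a membrane ligand related to the Notch ligands, and the maternal copy makes the non-coding RNA MEG3. MEG3 was at 151, 154 and 108 RPKM in 5iLA H7. It was at 1.60, 0.31 and 0.25 RPKM in primed H1 and at 0.60, 0.18 and 0.72 RPKM in t2iGo H1. The 5iLA libraries lay far above all others, with no overlap. MEG3 was 6.40 ± 0.24 (SE) higher in 5iLA H7 than in primed H1 (7.27 after scaling) and 6.53 ± 0.24 higher than in t2iGo H1 (limma, adjusted p = 3.12e-09 and 9.03e-09). The same contrast was seen within the H7 line in the untreated pair, with 44.8 RPKM in 5iLA and 0.28 RPKM in primed cells.

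DLK1 did not share this pattern. It was at 1.13, 0.87 and 0.54 RPKM in 5iLA H7 and at 2.33, 6.41 and 3.48 RPKM in t2iGo H1. In primed H1 it was at 34.4, 2.45 and 8.89 RPKM, so the control library was far above the libraries with a CCNE1 shRNA. DLK1 was 2.54 ± 0.58 lower in 5iLA H7 than in primed H1 (limma, adjusted p = 0.00153), but the scaled difference of -1.54 did not pass (limma, adjusted p = 0.0555). Of the other transcripts of this cluster, RTL1, a retrotransposon-derived gene of the paternal copy, was at 3.44, 8.18 and 10.9 RPKM in 5iLA H7 and at or under 0.26 RPKM in the other 6 shRNA libraries. MEG8, a maternal non-coding RNA, was at 4.45, 5.18 and 5.89 RPKM in 5iLA H7 and listed at 0 in those 6. RTL1 lies antisense to transcripts of the maternal copy, and whether the counting used strand is not given in the sources used here, so its reads cannot be told apart from theirs.

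On chromosome 11, H19, a maternal non-coding RNA, and IGF2, a paternal fetal growth factor gene, share 1 control region and enhancers, and they were high in different cultures. H19 was at 7.89, 16.3 and 24.7 RPKM in 5iLA H7. It was at 0.16, 0.32 and 0.04 RPKM in primed H1 and at 0.06, 0.18 and 0.07 RPKM in t2iGo H1. No library of another culture came near the 5iLA range. The difference was 3.76 ± 0.27 against primed H1 and 3.84 ± 0.27 against t2iGo H1 (limma, adjusted p = 2.48e-07 and 8.77e-07), and 4.44 and 4.42 after scaling. In untreated H7 cells H19 was at 6.68 RPKM in 5iLA and listed at 0 in primed cells. H19 is abundant in placenta, and the summed level of 11 trophoblast markers was also higher in 5iLA, at 66.2, 79.7 and 66.9 RPKM in 5iLA H7 against 6.03 to 12.6 RPKM in the other 6 shRNA libraries. Of these markers, CGA and TFAP2C made up most of the sum in 5iLA H7, at 39.5 to 51.9 and 14.9 to 19.9 RPKM. GATA3 was at 0.74 to 1.36 RPKM and ELF5 at most 0.24 RPKM there. KRT7 went the other way, at 10.004, 4.66 and 4.38 RPKM in primed H1 and 0.22, 0.54 and 0.32 RPKM in 5iLA H7. HAND1 was highest in t2iGo H1, at 3.49, 2.96 and 5.23 RPKM, against 0.50, 1.73 and 2.72 RPKM in 5iLA H7. Of 5 tested trophoblast markers 4 were higher and 1 lower in 5iLA H7 than in primed H1 (limma, adjusted p under 0.05). The part of these markers in the H19 level was not tested.

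IGF2 was at 9.46, 14.2 and 23.2 RPKM in t2iGo H1. It was at 1.44, 0.56 and 1.10 RPKM in primed H1 and at 0.41, 0.30 and 0.54 RPKM in 5iLA H7. All t2iGo libraries were above all others of the shRNA table. IGF2 was 2.97 ± 0.25 higher in t2iGo H1 than in primed H1 (3.46 after scaling) and 3.47 ± 0.25 lower in 5iLA H7 than in t2iGo H1 (limma, adjusted p = 1.07e-06 and 8.43e-07). Sums of markers of other cell types are given beside it: over the same 3 t2iGo libraries the summed level of 10 endoderm markers was 66.7, 151 and 146 RPKM, and that of 11 fibroblast markers was 83.3, 141 and 238 RPKM. The endoderm sum was carried by APOA2 at 40.6, 105 and 97.6 RPKM, AFP, APOA1 and TTR, while the endoderm transcription factor genes SOX17, FOXA2, GATA4 and GATA6 were at 0.78 to 2.05 RPKM and each highest in the control library, where IGF2 was lowest. The fibroblast sum was carried by COL3A1 at 47.3, 86.9 and 137 RPKM and LUM at 13.9, 32.7 and 71.5 RPKM. COL1A1, COL1A2, DCN and POSTN rose in the same order at lower levels, COL1A1 at 3.70, 4.79 and 6.73 RPKM. PDGFRB, at 2.39, 1.66 and 1.38 RPKM, and S100A4, at 12.2, 9.87 and 10.5 RPKM, were instead highest in the control library. Of 7 tested fibroblast markers 3 were higher and 3 lower in t2iGo H1 than in primed H1 (limma, adjusted p under 0.05). All tested genes stood at 8.77% higher and 63.0% lower. After scaling 3 of the markers were higher and 1 lower, beside 32.7% and 34.9% of all tested genes. LUM was tested only because of its level in t2iGo H1, and PDGFRB only because of its level in primed H1. The endoderm list was at 2.05 to 6.94 RPKM in primed H1 and the fibroblast list at 54.0 to 87.6 RPKM, and their part in the IGF2 level was not tested. In bulk RNA, more cells of a type and more RNA per cell cannot be told apart. In untreated H7 cells IGF2 was at 5.26 RPKM in 5iLA and 0.72 RPKM in primed cells, beside summed fibroblast markers of 64.2 and 25.7 RPKM. The untreated 5iLA library was thus above the 5iLA shRNA libraries for IGF2, in a table that was normalised separately.

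The other members on chromosome 11 lie around the KCNQ1 cluster, where the paternal non-coding RNA KCNQ1OT1 silences its neighbours in cis. CDKN1C, which encodes the cell cycle inhibitor p57, was at 3.54, 0.72 and 4.39 RPKM in primed H1 and at 3.12, 3.11 and 7.22 RPKM in t2iGo H1. It was at 0.84, 0.58 and 0.84 RPKM in 5iLA H7, below all t2iGo libraries, and 1.57 ± 0.28 lower than in t2iGo H1 (-1.39 after scaling; limma, adjusted p = 6.15e-04). CDKN1C was at 5.16 RPKM in untreated 5iLA H7 and 2.47 RPKM in untreated primed H7. KCNQ1OT1 was at 0.03 to 0.04 RPKM in primed H1, 0.70 to 0.82 RPKM in 5iLA H7 and 0.45 to 0.59 RPKM in t2iGo H1. KCNQ1, a potassium channel gene that overlaps it on the opposite strand, was at 0.59 to 1.21 RPKM in primed H1, at most 0.09 RPKM in 5iLA H7 and listed at 0 in t2iGo H1. The levels of the 2 genes were thus ordered oppositely between primed H1 and the other cultures. Neither reached the mean of 1 RPKM needed for the tests. For KCNQ1OT1 these low RPKM still stood for an estimated 1233, 750 and 842 reads in 5iLA H7. In primed H1 they stood for an estimated 47.6, 60.3 and 76.2 reads. Reads of the pair cannot be told apart without strand. PHLDA2, a placental growth gene, stayed at or under 1.05 RPKM and the transporter gene SLC22A18 at or under 3.06 RPKM in all libraries.

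The members on chromosome 15 form the cluster affected in Prader-Willi and Angelman syndromes. SNRPN and SNURF, a short reading frame at the front of the same transcript, were the members highest in primed H1 relative to the other cultures on this chromosome. SNRPN was at 527, 494 and 448 RPKM in primed H1, 81.1, 54.8 and 47.2 RPKM in 5iLA H7 and 117, 76.9 and 53.1 RPKM in t2iGo H1. SNURF was at 332, 165.5 and 222.5 RPKM in primed H1, 5.80, 6.52 and 3.21 RPKM in 5iLA H7 and listed at 0 in all 3 t2iGo libraries. Primed H1 was above both other cultures for both genes, without overlap. SNRPN was 2.63 ± 0.21 lower in t2iGo H1 and 3.02 ± 0.21 lower in 5iLA H7 than in primed H1 (limma, adjusted p = 9.65e-07 and 2.02e-07; -1.66 and -1.57 after scaling). SNURF was 5.27 ± 0.25 lower in 5iLA H7 (-3.91 after scaling; limma, adjusted p = 1.48e-08). It also passed as lower in t2iGo H1 (limma, adjusted p = 3.89e-09), with no fold given because those values are listed at 0. How the authors' software divided reads between the 2 overlapping entries is not given, so the value of SNURF is uncertain. In untreated H7 cells SNRPN was at 176 RPKM in primed and 81.4 RPKM in 5iLA cells, and SNURF at 18.1 and 0.0001 RPKM.

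The neighbours of SNRPN that are single-exon genes of the paternal copy went different ways. NDN, which encodes the growth suppressor necdin, was at 9.82, 9.09 and 10.03 RPKM in primed H1, 1.32, 1.48 and 1.46 RPKM in 5iLA H7 and 3.51, 2.41 and 2.32 RPKM in t2iGo H1. The 3 ranges did not overlap, and the falls from primed H1 held after scaling (-1.52 ± 0.17 and -0.68 scaled for t2iGo H1, -2.14 ± 0.17 and -1.002 scaled for 5iLA H7; limma, adjusted p = 9.50e-06 and 4.82e-07). NDN was at 4.47 RPKM in untreated 5iLA H7 and 3.60 RPKM in untreated primed H7, so that pair did not share the fall. MKRN3, a ubiquitin ligase gene known from the timing of puberty, was instead at 3.56, 1.74 and 2.58 RPKM in 5iLA H7, at most 0.20 RPKM in primed H1 and listed at 0 in t2iGo H1. The untreated pair repeated this contrast, with 1.18 RPKM in 5iLA H7 and 0.05 RPKM in primed H7. MAGEL2 was at 0.60 to 1.22 RPKM in primed H1 and at most 0.23 RPKM in the other shRNA libraries. MKRN3 and MAGEL2 were below the minimum for the tests. UBE3A, a ubiquitin ligase gene that is imprinted in neurons, was at 17.0, 19.4 and 22.0 RPKM in primed H1, 27.6, 29.9 and 32.2 RPKM in t2iGo H1 and 16.4, 12.3 and 12.0 RPKM in 5iLA H7. UBE3A was higher in t2iGo H1 than in primed H1 (0.60 ± 0.20 and 1.51 scaled; limma, adjusted p = 0.0186). Its difference between 5iLA H7 and primed H1 turned from -0.50 ± 0.20 as deposited to 0.87 after scaling. ATP10A, a lipid flippase gene, was at 0.68 to 1.17 RPKM in primed H1 and at most 0.18 RPKM in the other shRNA libraries.

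**Figure D2:**
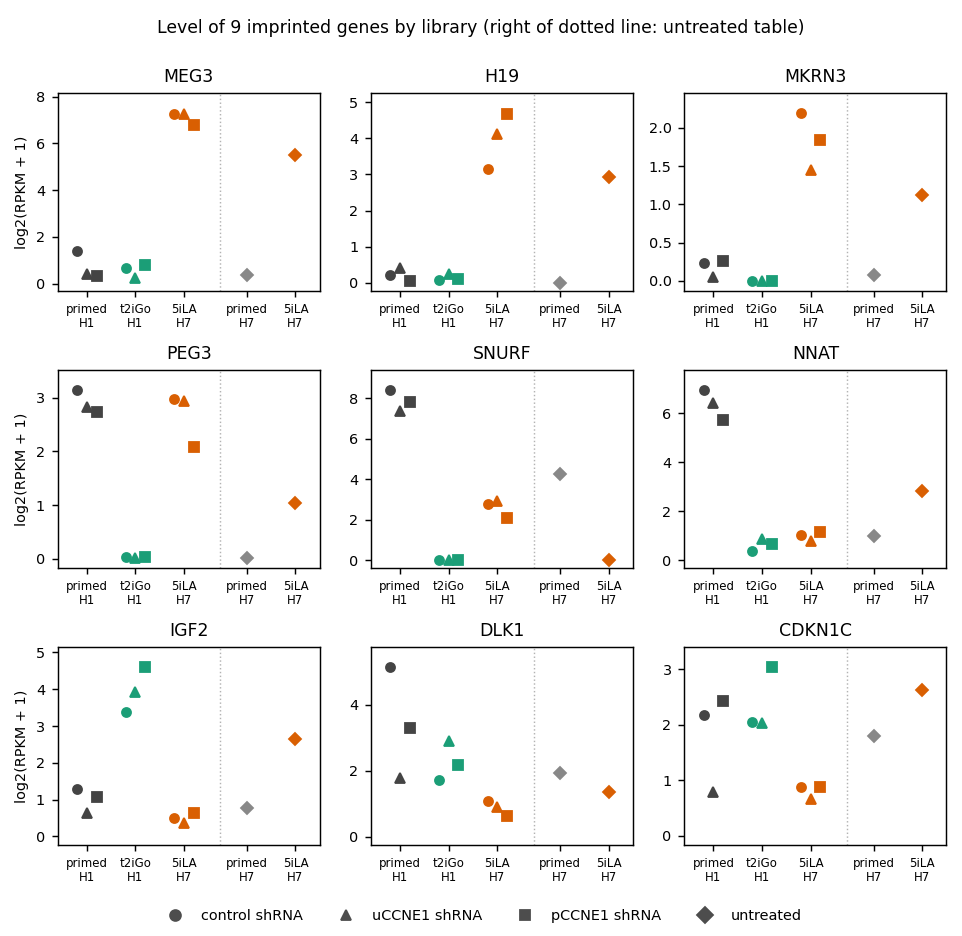
Level of 9 imprinted genes in each library as log2(RPKM + 1), by culture on the x axis, with the untreated H7 libraries of the separate table to the right of the dotted line; marker shapes give the shRNA and each point is 1 library. MEG3, H19 and MKRN3 lie above the rest in 5iLA alone, while PEG3 is near 0 in untreated primed H7 and in t2iGo H1.

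PEG3, a paternal zinc finger gene on chromosome 19, separated t2iGo H1 from the rest of the shRNA table. It was at 7.80, 6.11 and 5.68 RPKM in primed H1 and at 6.82, 6.65 and 3.23 RPKM in 5iLA H7. It was at 0.03, 0.02 and 0.02 RPKM in t2iGo H1, an estimated 3.38, 1.30 and 1.26 reads. PEG3 was 2.87 ± 0.20 lower in t2iGo H1 than in primed H1 (-2.17 after scaling) and 2.63 ± 0.20 higher in 5iLA H7 than in t2iGo H1 (limma, adjusted p = 4.05e-07 and 1.46e-06). The cells of both H1 cultures share a line, and the labels give no clone or passage. In untreated primed H7 cells PEG3 was at 0.01 RPKM, under 1 estimated read, beside 1.05 RPKM in untreated 5iLA H7. PEG3 RNA was thus near 0 in 1 primed library as well as in the t2iGo libraries. ZIM2, which shares the start of PEG3, was at 0.91, 0.46 and 0.42 RPKM in 5iLA H7 and at most 0.18 RPKM in the other shRNA libraries.

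NNAT, a paternal gene on chromosome 20 that encodes the small membrane protein neuronatin, was high in primed H1 alone. It was at 121, 84.4 and 51.9 RPKM there, at 1.06, 0.73 and 1.23 RPKM in 5iLA H7 and at 0.29, 0.84 and 0.58 RPKM in t2iGo H1. NNAT was 5.72 ± 0.27 lower in t2iGo H1 and 5.36 ± 0.27 lower in 5iLA H7 than in primed H1 (limma, adjusted p = 6.37e-08 and 1.98e-08; -4.85 and -4.20 after scaling). The untreated H7 pair did not share the direction: NNAT was at 1.003 RPKM in primed and 6.08 RPKM in 5iLA cells. BLCAP, the gene whose intron holds NNAT, was at 23.3, 23.5 and 26.1 RPKM in primed H1, 9.44, 9.99 and 7.05 RPKM in 5iLA H7 and 11.6, 12.3 and 11.5 RPKM in t2iGo H1. After scaling BLCAP differed from primed H1 by -0.06 in t2iGo H1 and -0.01 in 5iLA H7, and neither passed. GNAS was at 599.9, 609 and 588 RPKM in primed H1, 193, 184 and 172 RPKM in t2iGo H1 and 77.6, 63.6 and 76.5 RPKM in 5iLA H7. It was lower than in primed H1 in both (limma, -1.71 ± 0.19 and -3.03 ± 0.19, or -0.73 and -1.58 after scaling). GNAS makes several isoforms, of which some are imprinted and the main one is not in most tissues. Which of them its single value covers is not given in the sources used here.

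Of the members on chromosome 7, PEG10, a retrotransposon-derived placental gene, was at 42.6, 42.5 and 61.1 RPKM in primed H1 and 37.9, 44.9 and 52.2 RPKM in t2iGo H1. It was at 6.90, 4.82 and 6.95 RPKM in 5iLA H7, below both. The difference of 5iLA H7 was -2.78 ± 0.20 against primed H1 (-1.42 scaled; limma, adjusted p = 1.97e-07) and -2.67 ± 0.20 against t2iGo H1 (-2.26 scaled; limma, adjusted p = 1.06e-06). The untreated H7 pair had the opposite order, with 54.1 RPKM in 5iLA and 16.7 RPKM in primed cells. SGCE, the epsilon-sarcoglycan gene that shares a promoter region with PEG10, was at 13.9 to 16.6 RPKM in primed H1, 4.49 to 5.66 RPKM in t2iGo H1 and 1.96 to 2.33 RPKM in 5iLA H7. GRB10, an adaptor that dampens insulin and IGF receptor signalling, was at 30.4 to 34.8 RPKM in primed H1, 10.6 to 16.7 RPKM in t2iGo H1 and 2.35 to 3.39 RPKM in 5iLA H7. Both fell from primed H1 to 5iLA H7 (limma, SGCE -2.41 ± 0.16 and -1.19 scaled, GRB10 -3.11 ± 0.21 and -1.82 scaled). MEST, a hydrolase-like gene, was at 99.3, 97.6 and 95.02 RPKM in primed H1, 32.6, 27.95 and 18.6 RPKM in 5iLA H7 and 15.8, 17.0 and 19.7 RPKM in t2iGo H1. Its fall to t2iGo H1 held after scaling (-2.41 ± 0.22 and -1.46 scaled; limma, adjusted p = 2.17e-06), while that to 5iLA H7 was -1.88 ± 0.22 and, scaled, -0.45 with a limma adjusted p of 0.0531. The untreated H7 pair did not share the falls of MEST, at 68.4 RPKM in 5iLA and 38.3 RPKM in primed cells, and SGCE, at 10.3 and 7.69 RPKM. GRB10 kept its order there, at 6.55 RPKM in 5iLA and 11.5 RPKM in primed cells. PPP1R9A, which encodes neurabin, and TFPI2, a protease inhibitor gene, stayed between 1.14 and 2.95 RPKM and between 2.39 and 5.51 RPKM in the shRNA libraries.

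The remaining members stand alone on their chromosomes or share them with 1 other. ZDBF2, a paternal zinc finger gene on chromosome 2, was at 1.93 to 3.78 RPKM in primed H1 and 5.20 to 7.21 RPKM in t2iGo H1, a rise of 0.87 ± 0.20 (1.56 scaled; limma, adjusted p = 0.00219). PLAGL1, a zinc finger transcription factor gene on chromosome 6, was at 1.07 to 2.34 RPKM in primed H1, 0.93 to 1.48 RPKM in t2iGo H1 and 0.04 to 0.22 RPKM in 5iLA H7, and fell in 5iLA H7 (-1.30 ± 0.21 and -0.73 scaled; limma, adjusted p = 1.17e-04). INPP5F, a phosphatase gene on chromosome 10 with an imprinted short isoform, was at 50.8 to 64.9 RPKM in primed H1, 34.4 to 45.0 RPKM in t2iGo H1 and 26.7 to 28.2 RPKM in 5iLA H7. Its differences from primed H1 passed with opposite signs as deposited (-0.52 and -1.08) and scaled (0.43 and 0.34), so no direction is given. NAP1L5 on chromosome 4 was at 2.34 to 2.61 RPKM in primed H1 and at 0.70 to 1.22 RPKM elsewhere in the shRNA table, and its scaled differences of -0.13 and -0.02 did not pass. DIRAS3 was at most 0.10 RPKM in primed H1 and 0.36 to 0.92 in t2iGo H1, and FAM50B was listed at 0 in t2iGo H1 and at 0.19 to 0.81 RPKM in primed H1.

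Counted together, members lay on both sides in every culture comparison. Between t2iGo H1 and primed H1, 3 of 23 tested members were higher, beside 8.77% of all tested genes, and 12 were lower, beside 63.0% (limma, adjusted p under 0.05). After scaling the counts were 7 higher, beside 32.7%, and 8 lower, beside 34.9%. The members' median difference was -0.75 beside -0.82 for all genes, and -0.06 beside -0.01 after scaling. Between 5iLA H7 and primed H1, 2 members were higher, beside 7.74%, and 17 lower, beside 76.8%, or 7 and 9 after scaling, beside 31.7% and 33.9%. The members' median there was -1.30 beside -1.23, and -0.18 beside -0.04 after scaling. Between 5iLA H7 and t2iGo H1, 4 members were higher, beside 14.9%, and 11 lower, beside 40.1%, or 5 and 8 after scaling, beside 29.4% and 26.8%. Some of the members counted were tested only because of their level in 1 of the cultures compared. For MEG3 and H19 that culture was 5iLA H7. They were the 2 members higher there than in primed H1, and were among the 4 higher than in t2iGo H1. IGF2, among the 3 higher in t2iGo H1 than in primed H1, was tested through t2iGo H1. NNAT, lower in both cultures than in primed H1, was tested through primed H1. Over all 33 members, with or without a test, the 3 t2iGo libraries lay as deposited wholly above the 3 primed H1 libraries for 5 members (beside 8.99% of all 23287 genes) and wholly below them for 20 (beside 46.1%). For 5iLA H7 against primed H1 the counts as deposited were 5 (beside 8.22%) and 21 (beside 50.6%), and for 5iLA H7 against t2iGo H1 they were 8 (beside 13.7%) and 16 (beside 28.4%). After scaling, the 3 t2iGo libraries lay wholly above the 3 primed H1 libraries for 10 members (beside 24.7%) and wholly below them for 14 (beside 26.7%). For 5iLA H7 against primed H1 the scaled counts were 10 (beside 24.0%) and 13 (beside 24.7%), and for 5iLA H7 against t2iGo H1 they were 11 (beside 23.3%) and 10 (beside 20.7%). The members' shares lay above those of all genes in some of these counts and below them in others, and the difference was not tested. The comparison of 5iLA H7 with either H1 culture also compares 2 cell lines, and line and medium cannot be told apart in it. Culture and the scale of the libraries cannot be told apart either, since all 3 primed H1 libraries stood apart in scale.

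**Figure D3:**
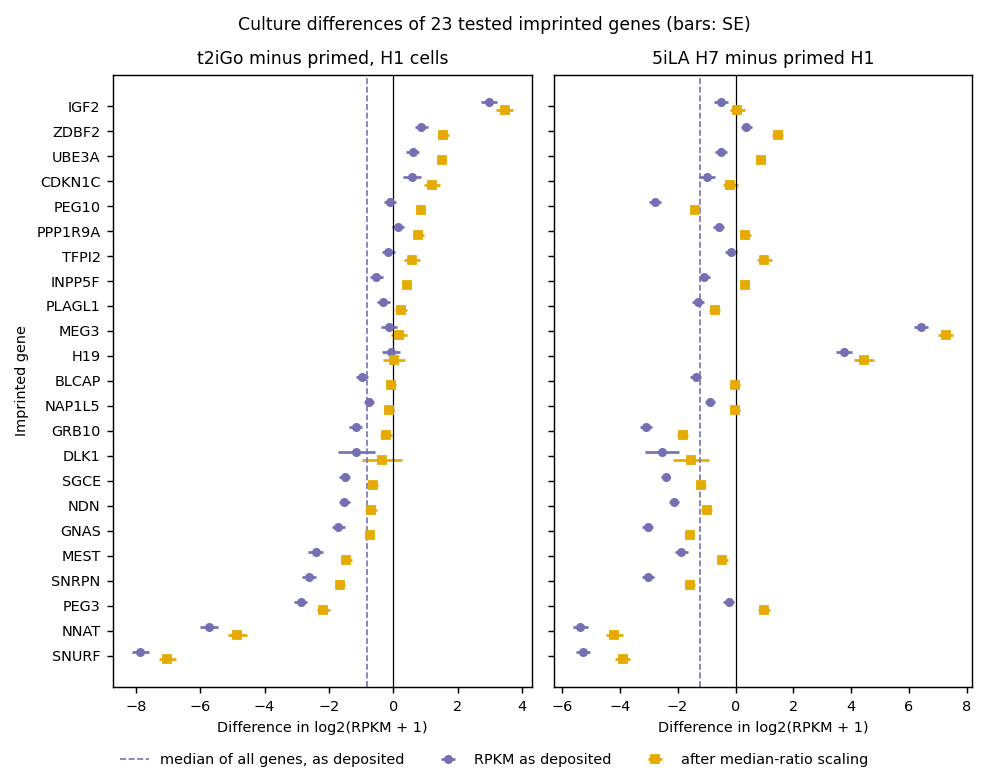
Difference in log2(RPKM + 1) between cultures for the 23 tested imprinted genes, for t2iGo H1 (left) and 5iLA H7 (right) against primed H1, as deposited (circles) and after median-ratio scaling (squares), with SE bars from limma. The circles lie on both sides of the dashed line, the all-gene median of -0.82 and -1.23, and the squares on both sides of 0; the extremes are SNURF and NNAT to the left, IGF2 (left panel) and MEG3 and H19 (right panel) to the right.

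The untreated pair compares the media within 1 line, with 1 library on each side and no test. Of the 20 members with a mean of at least 1 RPKM there, 7 were higher in 5iLA H7 by more than 1 on the log2 scale (beside 11.0% of 11015 genes) and 2 were lower (beside 3.94%), and the all-gene median was 0.23. The higher members were H19, listed at 0 in primed cells, and MEG3 at 5.16, INPP5F at 2.97, IGF2 at 1.86, NNAT at 1.82, PEG10 at 1.64 and TFPI2 at 1.63. SNURF, near 0 in 5iLA cells, and SNRPN at -1.10 were the lower ones. INPP5F went from 4.76 RPKM in primed to 44.0 RPKM in 5iLA cells, and TFPI2 from 1.49 to 6.71 RPKM. Of the members past 1 in this pair, MEG3, H19, SNRPN and SNURF thus had the same order between 5iLA and primed cells in both tables. NNAT, PEG10, INPP5F and IGF2 had opposite orders as deposited. The 5iLA minus primed H1 difference was 0.34 for INPP5F and 0.07 for IGF2 after scaling, so for these the opposite order was not kept. Within 1, NDN, MEST and SGCE were above primed cells in 5iLA, at 0.25, 0.82 and 0.38, while DLK1 and GRB10 were below, at -0.56 and -0.72. These members were all lower in 5iLA H7 than in primed H1 as deposited. UBE3A, at 19.2 RPKM in both, and GNAS, at 175 RPKM in primed and 164 RPKM in 5iLA cells, were level in this pair. Its 5iLA library was far above the 5iLA shRNA libraries on the primed markers, as given above. The part of this in the opposite orders was not tested.

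The genes that maintain imprints were followed as a list of 24, of which 23 were in the tables and 21 were tested. ZFP57 was at 12.2, 10.1 and 8.52 RPKM in 5iLA H7 and at most 0.92 RPKM in primed H1 and t2iGo H1, a difference of 2.89 ± 0.18 from primed H1 (limma, adjusted p = 8.42e-08). ZFP57, DPPA3, DNMT3L, NLRP2 and NLRP7, 5 of the 21 tested, passed the minimum of the tests through 5iLA H7 alone. DPPA3, which protects maternal methylation in the zygote, was at 156 to 259.6 RPKM in 5iLA H7, and DNMT3L, a cofactor of the de novo methyltransferases, at 77.8 to 97.96 RPKM, both under 1 RPKM in the other 6. NLRP7, in which maternal mutations cause moles with imprinting loss, was at 293 to 628 RPKM in 5iLA H7 and at most 1.47 RPKM in the other shRNA libraries. Several of these are also naive markers. DNMT1 was at 29.7 to 43.4 RPKM in primed H1, 10.3 to 14.9 RPKM in t2iGo H1 and 5.92 to 6.36 RPKM in 5iLA H7, and TRIM28 at 139 to 208, 16.2 to 41.8 and 28.7 to 56.6 RPKM. Both were lower than in primed H1 in either culture, also after scaling (limma; the scaled differences in t2iGo H1 and 5iLA H7 were -0.49 and -1.04 for DNMT1 and -1.64 and -0.61 for TRIM28). Of the 21, 5 were higher and 9 lower in t2iGo H1 than in primed H1, beside 8.77% and 63.0% of all tested genes (11 and 6 scaled, beside 32.7% and 34.9%). In 5iLA H7 7 were higher and 12 lower, beside 7.74% and 76.8% (12 and 6 scaled, beside 31.7% and 33.9%). Of 39 further imprinted genes 34 were in the tables and 12 were tested, with 2 higher and 4 lower in t2iGo H1 (5 and 3 scaled) and 2 higher and 9 lower in 5iLA H7 (3 and 6 scaled), beside the same shares of all genes. The 2 higher in 5iLA H7 as deposited were MEG8 and RTL1, which were tested only because of their level in that culture.

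**Figure D4:**
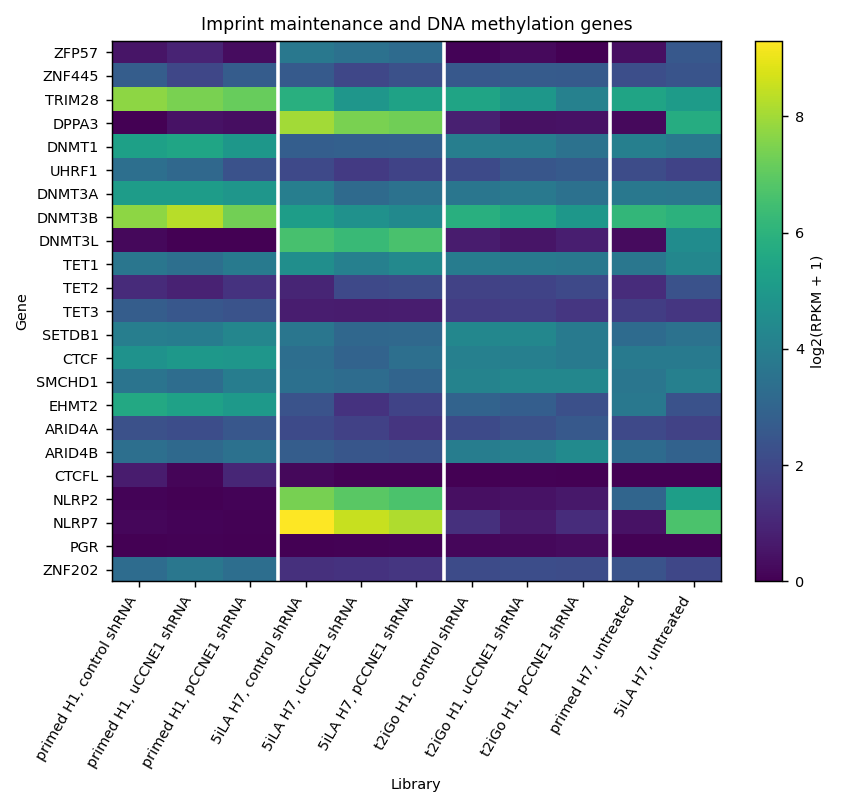
Level of 23 genes of imprint maintenance and DNA methylation (rows) in the 11 libraries (columns, white lines between cultures), as log2(RPKM + 1) in colour. ZFP57, DPPA3, DNMT3L, NLRP2 and NLRP7 are bright in the 5iLA columns and dark in primed H1 and t2iGo H1, while TRIM28, DNMT1 and DNMT3B are brightest in primed H1.

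The knockdowns were judged first on CCNE1 itself, a driver of entry into S phase. It was at 11.95, 6.75 and 10.5 RPKM in primed H1, 14.1, 5.27 and 8.38 RPKM in 5iLA H7 and 9.65, 5.38 and 5.25 RPKM in t2iGo H1, so below its control in all 6 knockdown libraries. The gene has a single value, and which splice forms it covers is not given in the sources used here. The pCCNE1 form itself was thus not measured. Over the 3 cultures, 0 of 23 members passed for pCCNE1, for uCCNE1 or for the difference between them, beside 0.0% of all 12116 genes in each (limma, adjusted p under 0.05). An unadjusted limma p under 0.05 was reached by 2 members and 1792 genes for pCCNE1, 0 members and 1236 genes for uCCNE1 and 1 member and 495 genes for their difference.

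The 2 members for pCCNE1 were SNRPN and TFPI2. SNRPN, whose levels are given above, differed from the control of its own culture by -1.12 in t2iGo H1, -0.77 in 5iLA H7 and -0.23 in primed H1, a mean of -0.71 ± 0.21 (limma, adjusted p = 0.203). TFPI2 was at 4.21, 3.53 and 4.60 RPKM in primed H1, 2.45, 4.47 and 4.14 RPKM in 5iLA H7 and 2.39, 3.32 and 5.51 RPKM in t2iGo H1, with a mean pCCNE1 difference of 0.54 ± 0.21 (limma, adjusted p = 0.258). SNRPN was below and TFPI2 above control in all 3 cultures with pCCNE1. The all-gene median was -0.15 for pCCNE1 and -0.14 for uCCNE1. For uCCNE1 the smallest p was that of CDKN1C at -0.54 ± 0.28, followed by SNRPN at -0.42 ± 0.21 and MEG3 at -0.47 ± 0.24 (limma, adjusted p = 0.522, 0.531 and 0.534). For pCCNE1 minus uCCNE1 it was CDKN1C at 0.96 ± 0.28 (limma, adjusted p = 0.990), which rests on its level of 0.72 RPKM with uCCNE1 in primed H1 and of 7.22 RPKM with pCCNE1 in t2iGo H1.

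H19 was above control with both CCNE1 shRNAs in 5iLA H7, where it went from 7.89 RPKM with the control to 16.3 with uCCNE1 and 24.7 with pCCNE1. These differences of 0.96 and 1.53 come from single libraries, and the untreated 5iLA library was at 6.68 RPKM. With pCCNE1 H19 was the 1 member more than 1 above control in that culture, beside 0.875% of genes, and 0 were more than 1 below, beside 4.9%. For uCCNE1 0 members passed 1, beside 0.528% higher and 4.94% lower, while after scaling H19 at 1.44 and TFPI2 did, both above control. Over all 3 cultures the H19 difference was 0.46 ± 0.27 for pCCNE1 and 0.43 ± 0.27 for uCCNE1 (limma, adjusted p = 0.457 and 0.600), and -0.08 for pCCNE1 without the 5iLA libraries. The summed fibroblast markers in the same 5iLA libraries were 5.61, 16.6 and 14.9 RPKM, and their part was not tested. MEG3 was at 151, 154 and 108 RPKM there as deposited. After scaling it differed from control by 0.52 with uCCNE1 and -0.04 with pCCNE1, beside 1.44 and 1.98 for H19. With pCCNE1 MEG3 was thus not above control as deposited or scaled, while with uCCNE1 the scaled differences of both RNAs had the same sign.

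In t2iGo H1, IGF2 was 1.21 above control with pCCNE1 and 0.54 above it with uCCNE1. It was the 1 member more than 1 above control with pCCNE1, beside 0.735% of genes, while SNRPN at -1.12 was the 1 member more than 1 below, beside 2.72%. After scaling 3 members were more than 1 above control with pCCNE1, IGF2 at 1.35, CDKN1C at 1.13 and TFPI2 at 1.07, and 0 were more than 1 below. The summed fibroblast markers given above were highest in the same pCCNE1 library, and their part was not tested. With uCCNE1 DLK1 at 1.16 was the 1 higher member, beside 0.38%, and 0 were lower, beside 0.636%.

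In primed H1 the members past 1 were all below control, and 0 were above it, beside 0.924% of genes for pCCNE1 and 0.619% for uCCNE1. With pCCNE1 they were DLK1 at -1.84, NNAT at -1.21 and MEG3 at -1.06, which makes 3 of 23 beside 3.61% of genes. With uCCNE1 they were DLK1 at -3.36, CDKN1C at -1.40 and SNURF at -1.0001, which makes 3 of 23 beside 2.82%. CDKN1C and MEG3 were under 5 RPKM in both libraries of their pair and are named because of these counts, after their values were seen. After scaling MEG3 at -0.74 and SNURF at -0.97 were within 1, as was SNRPN at -0.98 in t2iGo H1. The difference of MEG3 is between 1.60 and 0.25 RPKM, in the range where MEG3 is nearly off.

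DLK1 was also the 1 member that passed the test of a response differing between cultures. With uCCNE1 its difference from control was 1.16 in t2iGo H1, -0.19 in 5iLA H7 and -3.36 in primed H1. The uCCNE1 effect in the 2 cultures labelled naive, 5iLA H7 and t2iGo H1, minus that in primed H1 was 3.84 ± 0.54 (limma, adjusted p = 0.0433), 1 of 23 members beside 0.157% of genes. In this model the 3 primed H1 libraries leave no spread of their own, so the error comes from the other cultures, and the primed side is 1 library against 1. The difference rests on the primed H1 control library, at 34.4 RPKM against 2.45 and 8.89 RPKM with the CCNE1 shRNAs. The call was lost after scaling at a difference of 3.69 (limma, adjusted p = 0.383) and in the other 3 alternatives run. For pCCNE1 the difference was 1.82 ± 0.54 (limma, adjusted p = 0.466), and 0 members passed, beside 0.223%. In the model without this term, DLK1 was lower with uCCNE1 when the t2iGo libraries were left out (limma, adjusted p = 0.00207). Leaving out t2iGo H1 also let more genes pass for uCCNE1 than leaving out either other culture. The DLK1 mean there joins -3.36 in primed H1 and -0.19 in 5iLA H7, so it rests on the same primed H1 control library.

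**Figure D5:**
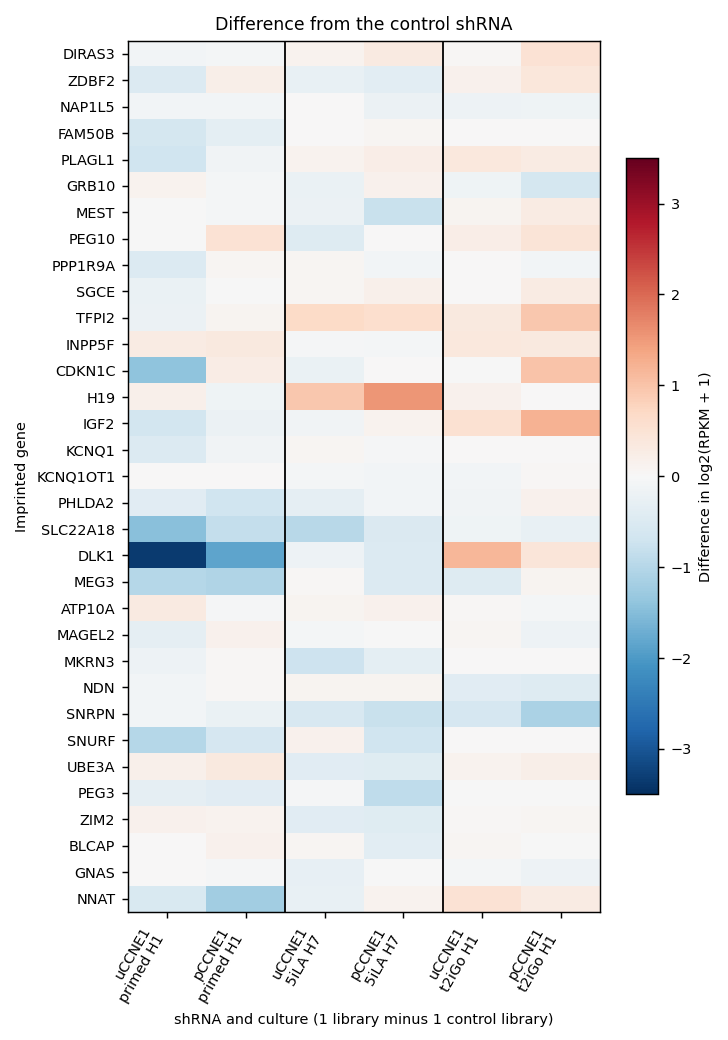
Difference in log2(RPKM + 1) of the 33 imprinted genes (rows) between each CCNE1 shRNA library and the control shRNA library of its culture (columns, black lines between cultures), 1 library against 1. The darkest cells are DLK1 in primed H1, at -3.36 with uCCNE1 and -1.84 with pCCNE1, and the darkest above control is H19 in 5iLA H7, at 1.53 with pCCNE1.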

How the data were processed

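Total RNA was prepared with an RNeasy kit and TruSeq RNA libraries were sequenced, per the labels' protocols. The deposited values are RPKM per gene, given by the authors in 2 tables that were treated as normalised separately. TopHat2 2.3.0, Cufflinks 1.2.1 and build hg19 are named per the submitters' processing notes, with roles, settings and use of strand not given in the sources used here. RefSeq sequences are on GRCh38.p14, and no coordinate was converted between builds.

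Members were matched by symbol. The members and lists were chosen with earlier results of these data known. Genes with a mean of at least 1 RPKM over a table's libraries entered the analysis, as log2(RPKM + 1), in R 4.3.3 with limma 3.58.1. Models held culture and shRNA over 9 libraries (4 residual degrees of freedom), or in addition a term by which an shRNA acts differently in cultures labelled naive (2), with Benjamini-Hochberg adjustment over 12116 genes at 0.05. The model was checked on simulated data. Members named in a comparison are the largest past the threshold, up to 10 per direction, or the 3 smallest p per direction where fewer than 3 passed; the report describes further members for their role or cluster. Single libraries were compared without a test, at a log2 difference of 1, in members with at least 5 RPKM in the higher library. Read totals are not part of RPKM, so depth was estimated from the steps of low values, of which 39.1% to 44.2% lay within 0.1 read of a whole number. Transcript lengths for this were from GENCODE. Alternatives were a pseudocount of 0.1, no filter, quantile and median-ratio scaling, only the 6 libraries compared, and leaving out each shRNA or culture.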

Additional observations from a re-analysis of the deposited data

Results flagged for a closer look

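DLK1 stood out because its response to uCCNE1 differed between cultures by the model's test of that difference, at 3.84 on the log2 scale (limma, adjusted p = 0.0433). The primed side of this test is 1 library against 1, with the error taken from the other cultures. It was above control in 1 of the 2 cultures labelled naive and below it in the other and in primed H1. The call did not hold under any of the 4 alternatives run for it.

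PEG3 stood out because it was 1.02 higher in 5iLA than in primed cells of the untreated H7 pair, while all 3 t2iGo libraries were below primed H1. It was under the minimum level in that pair, at 1.05 and 0.01 RPKM, and its difference was 0.95 after scaling. NNAT stood out for the same reason, at 1.82 in the H7 pair. Neither difference between the lines was tested, and line, medium and table cannot be told apart in them.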

How the results depend on the processing

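For the 3 culture comparisons, the counts of genes and of members passing stayed within 1.5 times the main count in every alternative run, except that without the filter 23 members passed for t2iGo H1 against primed H1. The split between higher and lower moved with the scaling, as given in the report. Of the single members named for a comparison, 18 values lost the call in an alternative and 3 gained it. Leaving out each culture in turn, H19 for pCCNE1 ranged from -0.0754 (without 5iLA H7) to 0.771, and BLCAP for pCCNE1 minus uCCNE1 from -0.271 to 0.0278 (without 5iLA H7). UBE3A, higher in t2iGo H1, lost the call as deposited without the uCCNE1 or the pCCNE1 libraries (limma, adjusted p = 0.101 and 0.0655).

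The shRNA counts depended on the cultures kept. Leaving out each culture in turn, 0 to 94 genes passed for pCCNE1, 0 to 123 for uCCNE1 and 0 to 40 for their difference, the highest each time without t2iGo H1, while 0 to 1 member passed for uCCNE1. Without the primed H1 libraries 6 and 4 genes passed for pCCNE1 and uCCNE1. No filter gave 1 gene each, and the 6 libraries compared alone gave 38 for uCCNE1. For the naive minus primed difference, pCCNE1 went from 27 genes to 10 (quantile) and 9 (median ratio), and uCCNE1 from 19 to 9 (no filter), 10 (quantile) and 12 (median ratio). The 1 member for uCCNE1 became 0 with a pseudocount of 0.1, no filter, quantile or median-ratio scaling.

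In single libraries, a pseudocount of 0.1 moved the genes past 1 from 700 to 1816 (pCCNE1) and 662 to 1740 (uCCNE1) in 5iLA H7, from 549 to 881 and 417 to 780 in primed H1, and from 419 to 1305 and 123 to 406 in t2iGo H1. Members past 1 became 3 and 1 in 5iLA H7, 4 and 3 in t2iGo H1, and 6 for uCCNE1 in primed H1. Median-ratio scaling gave 401 genes and 2 members for uCCNE1 in 5iLA H7 and 275 genes in primed H1. The cause of these moves was not tested. Depth limits the low members: 1 read on a transcript of 2 kb stood for 0.0201 to 0.0794 RPKM. The labels give no replicate numbers to pair on; the model itself compares shRNAs within a culture and cultures within an shRNA.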
